A study of Homo sapiens with 4 samples.

Results

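Indisulam alone was compared with no treatment in SUM159, a human triple-negative breast cancer cell line with a mesenchymal-like phenotype. Transcript counts were available for 1 library per condition: untreated, palbociclib, indisulam, and palbociclib plus indisulam (the combination). The indisulam and the untreated library are the samples of this comparison, and the other 2 libraries were used to measure the effect of indisulam a second time. The members are the genes with a mean of at least 5 CPM (reads of a gene scaled by the total of reads in genes) over the untreated and indisulam libraries, which were 11293 of the 60279 genes listed and of the 25981 genes with a count in either library. All 4 cultures were grown in a medium with serum, insulin and hydrocortisone. The sample labels give 2 µM indisulam and 0.5 µM palbociclib for 10 days, whereas the series text gives 3 µM and 2 µM for 16 h. The paper describes RNA sequencing of SUM159 at each of these settings, as separate experiments, and the labels match the one of 10 days. Which of these applies was not settled, so no dose or time is attached to the values below. The series text also mentions technical duplicates, but each condition has 1 count file, so the comparison has no replicate check and no p-value is given.

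Indisulam is an aryl sulfonamide that works as a molecular glue. It binds DCAF15, the substrate receptor of a CUL4 ubiquitin ligase, and so brings in the RNA-binding protein RBM39, which is then degraded by the proteasome. RBM39 associates with the spliceosome and with transcription factors, and its loss is known for skipped exons and retained introns in many transcripts. Such events are outside what counts per gene can show. Cells that stop dividing for good may become senescent and secrete a mixture of chemokines, cytokines, growth factors and proteases, called the senescence-associated secretory phenotype (SASP), of which many genes are driven by the transcription factors NF-kB and AP-1.

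The untreated library held 12555908 reads in genes and the indisulam library 16712174. A log2 ratio below is that of the indisulam to the untreated library, taken on counts scaled to the same total with 1 added to each. A gene was called higher or lower when it differed by at least 2-fold and its exact 95% counting interval excluded 0, and the interval covers counting error only. The ratio of the combination to palbociclib uses neither of the libraries compared and is the second measure of indisulam, here named the pair with palbociclib. The spread of a single log2 ratio was estimated from the median absolute deviation, over genes, of the difference between both measures. It came to an SD of 0.29 over all members, 0.37 between 5 and 20 CPM, and 0.28 at 100 CPM or more. This SD is that of a typical gene, so single genes may vary more. Effects shared by both libraries with indisulam are not in it. The SD also includes any change that palbociclib makes to the response. CPM values are not corrected for gene length, so they are compared between libraries and not between genes. In RNA from a whole culture, fewer cells of one kind and less RNA per cell cannot be told apart.

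The mesenchymal-like identity of the line was present in the untreated and the indisulam library, in which all 8 of its markers were members, VIM at 4598 and 3131 CPM among them. Of these markers 7 lay below 0 with indisulam, with a median log2 ratio of -0.42, and 1 was called lower. In the pair with palbociclib 5 of the 8 lay above 0, with a median of 0.12. Of 9 luminal markers 5 were under the limit of 5 CPM, among them ESR1, PGR, EPCAM and CDH1. The other 4 were members, none of them called, and summed to 332 CPM untreated and 357 CPM with indisulam. The T-cell marker CD3E had no read in any library, while PTPRC, the general leukocyte marker, had between 11.1 and 17.5 CPM. CD14, of monocytes, was the other member of 7 immune markers and was called lower, at 9.24 and 3.95 CPM. Reads in the 13 mitochondrial protein genes summed to 50219 CPM without and 41248 CPM with indisulam. Just outside the limit of 5 CPM were SPIRE2, SLC29A3 and POLE2, with means of 4.99 CPM, and just inside it TNS2-AS1, CCDC191 and INSC, with means of 5.00 CPM.

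Of the 11293 members, 621 (5.50%) were called higher and 545 (4.83%) lower with indisulam. In the pair with palbociclib the shares were 6.47% higher and 5.55% lower. Counts of called members in the gene lists below are to be read beside these shares. Most genes moved little: the median log2 ratio was 0.06, and 71.9% of the members lay within 1.5-fold. At 4-fold or more there were 124 genes higher and 96 lower, and at 16-fold or more 26 higher and 7 lower. The calls were more frequent at low expression, where 17.7% of the members between 5 and 20 CPM were called.

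**Figure D1:**
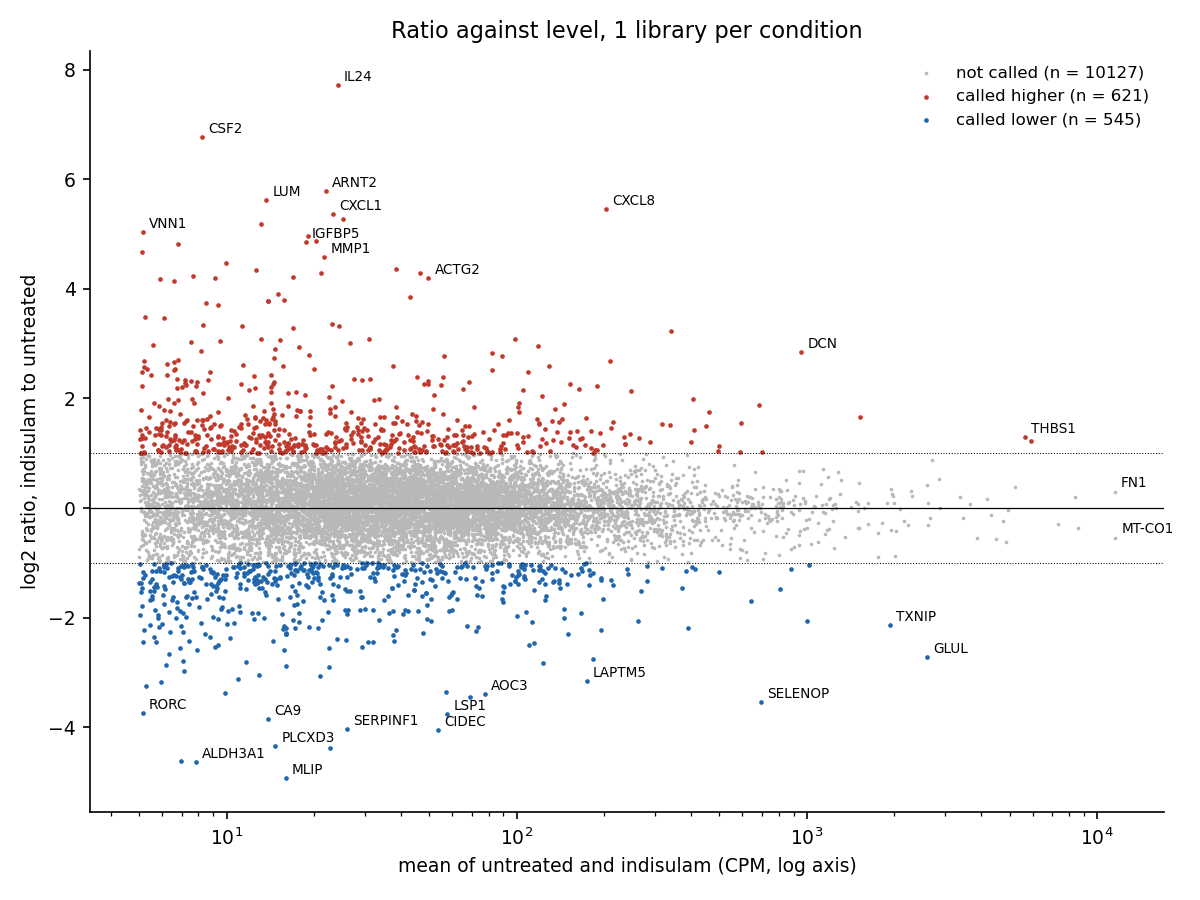
Log2 ratio of indisulam to untreated (y axis) against the mean CPM of both libraries (x axis, log scale), with 1 point per member. Red points are the 621 members called higher, blue points the 545 called lower, and the dotted lines mark 2-fold. IL24, CSF2, CXCL8 and LUM lie at log2 ratios between 5.45 and 7.71, and MLIP at -4.92.

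The 15 genes whose counting intervals lay farthest above 0 included cytokine, chemokine, matrix, actin and keratin genes. IL24, a cytokine of the IL-10 family, had 2 reads in the untreated and 805 in the indisulam library, with 0.159 and 48.2 CPM and a log2 ratio of 7.71 (6.38 to 11.29). CSF2, which encodes the growth factor GM-CSF, had 1 and 274 reads, a log2 ratio of 6.77 (5.20 to 12.99). The ratios of these genes rest on so few untreated reads that their size is poorly known, which the width of the intervals shows. CXCL8, which encodes the neutrophil chemoattractant IL-8, had enough reads on both sides, with 9.0 CPM untreated and 396 with indisulam, a 43.7-fold difference (log2 5.19 to 5.74), and 17.2 with palbociclib against 368 in the combination. ARNT2, a partner of bHLH-PAS transcription factors, went from 0.717 to 43.2 CPM, and GNAO1, a G protein subunit, from 0.637 to 25.7 CPM. CEMIP, which takes part in hyaluronan breakdown, had 4.46 and 88.5 CPM. In all 15 genes of this group the indisulam and the combination library lay above the untreated and the palbociclib library, and all 15 were called higher in the pair with palbociclib too. The palbociclib library also lay above the untreated one in 13 of the 15, with CEMIP at 27.3 CPM.

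At the other end stood MLIP, which encodes a lamin-interacting protein, with 31.1 CPM untreated and 0.957 with indisulam, a log2 ratio of -4.92 (-5.84 to -4.30). SELENOP, the selenium transport protein, had by far more reads, 16031 untreated and 1828 with indisulam, and a log2 ratio of -3.54 (-3.62 to -3.48). SERPINF1, which encodes the anti-angiogenic factor PEDF, had 48.9 and 2.93 CPM. CXCL13, a B-cell chemoattractant, had 13.5 and 0.479 CPM, so not every chemokine gene was higher. LAPTM5, a lysosomal membrane protein of blood cells, had 314 and 34.9 CPM. In 11 of the 15 genes of this group the palbociclib library lay below the untreated one. Of the 15 genes 13 were also called lower in the pair with palbociclib. The exceptions were CA9, the hypoxia-regulated carbonic anhydrase, and AOC3, a vascular amine oxidase. AOC3 had 142 CPM untreated and 13.4 with indisulam, but 12.3 with palbociclib and 6.89 in the combination.

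**Figure D2:**
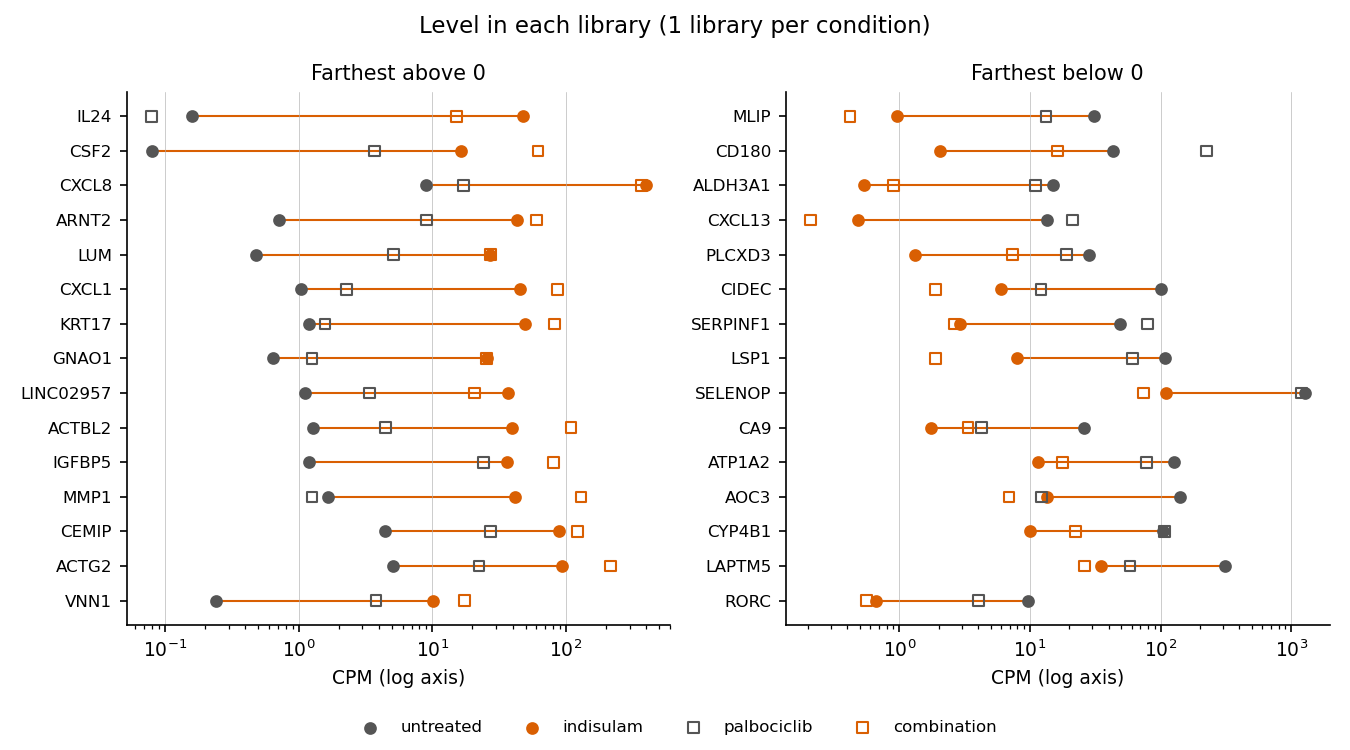
CPM (x axis, log scale) of the 15 members farthest above 0 (left) and the 15 farthest below 0 (right) in each of the 4 libraries, filled circles for untreated and indisulam, open squares for palbociclib and combination. The line joins untreated to indisulam, for example 9.0 to 396 CPM for CXCL8 and 31.1 to 0.957 CPM for MLIP.

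Ranked by change in CPM, which is a share of the reads in genes, other genes led. Such a ranking also depends on gene length, for which CPM is not corrected. THBS1, which encodes the matrix protein thrombospondin 1, gained 4782 CPM (log2 ratio 1.30) and FTH1, the ferritin heavy chain, 4721 CPM (1.22). FN1, MYH9, DCN and ACTB, genes of the matrix and the actomyosin cytoskeleton, followed. FN1 had log2 ratios of 0.30 here and -0.39 in the pair with palbociclib. The largest losses were those of MT-CO1, GLUL, TXNIP, MT-ND4, MT-CO2 and GAPDH. GLUL, the glutamine synthetase, had 4499 CPM untreated and 687 with indisulam, a log2 ratio of -2.71 (-2.74 to -2.68). TXNIP, a glucose-responsive inhibitor of thioredoxin, had a log2 ratio of -2.13 (-2.16 to -2.10).

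The transcripts of the drug target and of its ligase were close to the untreated level. RBM39 had 342 CPM untreated and 376 with indisulam, a log2 ratio of 0.13 (0.08 to 0.19), and 237 CPM with palbociclib against 305 in the combination. DCAF15 had 17.8 and 21.2 CPM, a log2 ratio of 0.26. DDB1, the adaptor of the ligase, had -0.24, and the scaffolds CUL4A and CUL4B had 0.05 and 0.41. None of the 8 members of this list was called in either pair, and the largest log2 ratio was that of DDA1, 0.74. Only transcripts were measured, so the level of RBM39 protein is not known from these data.

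Most chemokine genes of the list used were higher. Of its 8 members 6 were called higher and none lower, with a median log2 ratio of 2.87 beside 0.06 over all members and 2.40 in the pair with palbociclib. CXCL1, a ligand of the neutrophil receptor CXCR2, had 1.04 CPM untreated and 45.6 with indisulam, and 2.29 and 86.8 CPM in the palbociclib and combination libraries. CXCL11, a ligand of CXCR3, had 0.319 and 9.87 CPM, CXCL3 1.27 and 17.5 CPM, and CXCL2 8.20 and 26.4 CPM. CCL5, which attracts T cells, had 47.8 and 197 CPM. The members that were not called were CXCL12, with 27.2 and 18.0 CPM, and CXCL16, with 6.05 and 6.64 CPM. CXCL13, called lower in both pairs, is a chemokine gene and a member too but is missing from this list, and with it the median would be the 2.04 of CCL5. The list was longer than its members: 11 of its 19 genes lay under the limit on expression, and CCL20, for example, had 0.319 and 8.86 CPM.

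Of the chemokine genes that were higher, the promoters of CXCL8, CXCL11, CXCL1 and CXCL3 are shown because they share short motifs near the start of the gene. Those of CXCL2 and CCL5, also called higher, are not shown, and CCL5 has no promoter entry in the sources used here. The sequences are those of RefSeq in GRCh38.p14, on the strand of the gene and ending at the base before the annotated start, and capitals mark matches to a kappa-B motif (GGNNTTTCC, either strand), which NF-kB binds, or an AP-1 motif (TGANTCA). CXCL8 is at chr4:73740419-73740568 (+ strand), CXCL11 at chr4:76036071-76036170 (- strand), CXCL1 at chr4:73869293-73869392 (+ strand) and CXCL3 at chr4:74038690-74038789 (- strand).
CXCL8: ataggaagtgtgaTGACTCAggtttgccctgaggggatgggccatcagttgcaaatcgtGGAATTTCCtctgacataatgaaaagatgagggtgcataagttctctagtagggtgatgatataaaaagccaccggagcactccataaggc
CXCL11: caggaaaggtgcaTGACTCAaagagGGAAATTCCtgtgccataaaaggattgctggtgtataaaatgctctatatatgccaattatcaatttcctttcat
CXCL1: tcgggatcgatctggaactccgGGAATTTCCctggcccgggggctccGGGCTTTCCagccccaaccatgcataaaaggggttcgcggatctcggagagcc
CXCL3: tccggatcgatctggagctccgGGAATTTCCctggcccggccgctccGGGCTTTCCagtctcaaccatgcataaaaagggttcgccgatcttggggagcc
In CXCL8 the AP-1 match began 137 bases and the kappa-B match 91 bases before the start. In CXCL11 the same pair of motifs stood closer together, at 87 and 75 bases. CXCL1 and CXCL3, close relatives, carried a pair of kappa-B matches at 78 and 53 bases each. CXCL1, CXCL2 and CXCL3 are similar in sequence, and how reads shared by them were counted was not given in the sources used here.

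Several cytokine genes were higher as well, while receptor genes went both ways. Of 27 members among the interleukins, blood cell growth factors and their receptors, 11 were called higher and 3 lower, with a median log2 ratio of 0.48 (0.087 at a limit of 20 CPM), and 10 of the 11 were higher in the pair with palbociclib too. IL1A and IL1B, which encode both forms of the inflammatory cytokine IL-1, had 1.12 and 24.1 CPM and 1.83 and 26 CPM. IL6, a central SASP cytokine, had 1.83 CPM untreated and 28.3 with indisulam. CSF3, which encodes G-CSF, had 0.876 and 17.4 CPM, and LIF, of the IL-6 family, 0.956 and 11.2 CPM. IL1RL1, the receptor of IL-33, had 65.9 and 616 CPM, a log2 ratio of 3.22 (3.12 to 3.33). IL7R had 20.4 and 145 CPM. Lower were IL6R, the binding subunit of the IL-6 receptor, with 57.3 and 15.2 CPM, LIFR with 382 and 182 CPM, and IL20RB with 163 and 78.4 CPM. IL6ST, the signalling subunit of both IL6R and LIFR, had 768 and 818 CPM, a log2 ratio of 0.09.

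Several genes of the NF-kB pathway were higher, feedback inhibitors among them. Of 23 members 9 were called higher and none lower, 22 lay above 0, and the median log2 ratio was 0.94, with 0.45 in the pair with palbociclib. TNFAIP3, which encodes the ubiquitin-editing inhibitor A20, had 22.7 CPM untreated and 156 with indisulam, a log2 ratio of 2.78 (2.60 to 2.96). BIRC3, the ubiquitin ligase cIAP2, had 36.4 and 221 CPM. ZC3H12A, which encodes the RNase Regnase-1, had 23.7 and 107 CPM, and TRAF1 13.1 and 51.3 CPM. The subunit genes RELB and NFKB2 were called higher, at 1.19 and 1.18, while RELA had 0.36 and NFKB1 0.47. The promoter of TNFAIP3 (chr6:137867159-137867258, + strand, RefSeq, GRCh38.p14) is shown because this gene had the largest ratio of the list and carries a pair of kappa-B matches, 67 and 55 bases before the start, again in capitals.
TNFAIP3: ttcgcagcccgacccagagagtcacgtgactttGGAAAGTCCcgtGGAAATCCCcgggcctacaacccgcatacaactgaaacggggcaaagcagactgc

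In the immediate early genes the direction differed by member. FOS, the founding AP-1 subunit, had 190 CPM untreated and 59.7 with indisulam, a log2 ratio of -1.67, and FOSB and BTG2 were lower too. The related FOSL1 and FOSL2 were higher, at 1.22 and 1.16, as were MAFF (16.5 and 79.5 CPM), ATF3 (2.71 and 12.9 CPM) and IER3. This gave 5 members higher and 3 lower of 24. With palbociclib present FOS had 208 and 16.4 CPM, a log2 ratio of -3.66. The feedback genes of ERK signalling had 5 of 20 members higher and none lower, among them DUSP8 (1.19 and 9.93 CPM), PHLDA1 (67.0 and 183 CPM) and DUSP6 (13.8 and 33.8 CPM). The EGF receptor ligands EREG and AREG were higher at 2.06 and 1.77.

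Interferon-stimulated genes did not move together. Of 44 members 4 (9.09%) were called higher and 3 (6.82%) lower, beside 5.50% and 4.83% of all members. Above 0 lay 22 and below 0 lay 22, with a median log2 ratio of 0.00. ISG15, an interferon-induced ubiquitin-like protein, had 13.7 and 38.3 CPM and IFIT3 30.5 and 64.0 CPM, whereas IFI44L had 72.9 and 24.8 CPM and IFI35 35.4 and 11.1 CPM. None of the 18 members of class I antigen presentation was called in the indisulam pair, with HLA-B at 0.09 and B2M at 0.23. In the pair with palbociclib the median of these 18 genes was -0.43. CD274, which encodes the immune checkpoint ligand PD-L1, had 16.6 CPM untreated and 60.2 with indisulam, a log2 ratio of 1.85, and PDCD1LG2, which encodes PD-L2, had 11.9 and 25.7 CPM. KYNU, an enzyme of tryptophan breakdown, was higher at 46.5 and 142 CPM, and TDO2, which starts that pathway, lower at 14.4 and 3.59 CPM.

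Genes of cell division were not lower with indisulam alone. Among 47 DNA replication members 4 were called higher and none lower, the median being 0.53, and FEN1, the flap endonuclease, had 16.0 and 42.4 CPM. In mitosis genes 3 of 47 (6.38%) were called higher, near the 5.50% of all members, and none lower. Of these genes 38 lay above 0, with a median of 0.47. Against palbociclib their median was 1.03, and 25 of 47 were called higher, beside 6.47% of all members. KIF23 and KIF18A, kinesins of the spindle, had 34.6 and 98.0 CPM and 14.8 and 43.4 CPM. MKI67, the gene of the proliferation marker, had a log2 ratio of 0.97 (0.89 to 1.06), just under the limit. In the homologous recombination and Fanconi list 5 of 36 (13.9%) were higher and none lower, among them EXO1 (1.54), BLM (1.53), XRCC2 (1.22) and BRCA2 (1.21).

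Among the 26 cyclin, CDK and CDK inhibitor members 4 were called higher and none lower. CDK6, a target of palbociclib, had 28.2 CPM untreated and 60.9 with indisulam, a log2 ratio of 1.11 (0.94 to 1.29). WEE1, the kinase that restrains CDK1, had 42.4 and 92.4 CPM. The transcription factors E2F1 and E2F7 were higher at 1.22 and 1.47. CDK4 had -0.02, CDK2 -0.20, CCND1 0.35 and RB1 0.21, and of these only CCND1 exceeded the SD of 0.29 given above. RBL2, the pocket protein p130, had 162 and 91.5 CPM, and CDKN1A, which encodes p21, 61.8 and 40.6 CPM, a log2 ratio of -0.61 (-0.76 to -0.46). Of the 9 members of the CDK-activating kinase and TFIIH only the helicase gene ERCC2 was called, higher at 115 and 247 CPM. CCNH, which encodes cyclin H of this kinase, had 44.4 and 24.5 CPM, a log2 ratio of -0.86 (-1.04 to -0.67), and 45.1 and 19.1 CPM in the pair with palbociclib, where it was called lower. CCNH overlaps a gene transcribed from the other strand, and whether counting used strand was not given in the sources used here.

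Genes of RNA processing had small positive ratios. Of 81 spliceosome and SR protein members 66 lay above 0, with a median log2 ratio of 0.24, and 2 were called higher: RBM25 (75.1 and 165 CPM), a regulator of splice sites, and PRPF3 (49.8 and 99.8 CPM), of the U4/U6 particle. PRPF3 was under 2-fold with TMM scaling (0.98), upper-quartile scaling (0.94) and a pseudocount of 5. PTBP2, the neuronal polypyrimidine tract protein, was the member called of 39 hnRNP and other RNA-binding proteins, at 20.9 and 46.9 CPM. In the list of nonsense-mediated decay, the host genes SNHG1 and SNHG17 were called higher, at 1.01 and 1.08, of 26 members, but SNHG1 was under 2-fold with TMM (0.99) and upper-quartile scaling (0.95). Ribosome biogenesis genes had a median of 0.38, with POLR1G, a subunit of RNA polymerase I, at 8.04 and 27.6 CPM. The 80 cytosolic ribosomal protein genes were tightly held, between -0.45 and 0.27 with a median of 0.05, and none was called. With palbociclib present only 3 of these 80 lay above 0, with a median of -0.29.

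Matrix genes changed in both directions. In the list of collagens and fibrillar matrix 9 of 41 members were called higher and 3 lower, with a median log2 ratio of 0.30. LUM and DCN, small leucine-rich proteoglycans that bind collagen, had 0.478 and 26.9 CPM and 233 and 1681 CPM. POSTN, periostin, had 33.1 and 185 CPM, but 178 CPM with palbociclib and 218 in the combination. COL4A1 and COL4A2, the basement membrane collagen that is transcribed from a shared promoter, had 70.5 and 217 CPM and 113 and 309 CPM. BGN, biglycan of the same family as DCN, was lower at 10.8 and 1.14 CPM, and so was MGP, an inhibitor of calcification, at 160 and 40.9 CPM. The median of this list was -0.38 in the pair with palbociclib, where 7 members were called higher and 10 lower. The summed level of 6 fibroblast markers, DCN, LUM and COL1A1 among them, was 2727 CPM untreated, 4326 with indisulam, 5160 with palbociclib and 3468 in the combination. Of these markers DCN and LUM were called higher and PDGFRB lower, at 200 and 80.4 CPM. The part of this sum in the matrix values was not tested.

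MMP1, the interstitial collagenase, had 1.67 CPM untreated and 41.8 with indisulam, a log2 ratio of 4.58 (4.02 to 5.34), and 1.26 CPM with palbociclib against 130 in the combination. Of 24 proteases and inhibitors of the matrix and plasminogen system 5 were called higher, with SERPINE2 at 70.5 and 210 CPM, and SERPINF1 was called lower. Integrins and laminins were split, with 5 members higher and 5 lower of 29. ITGB4, an integrin chain of hemidesmosomes, was lower at 422 and 101 CPM. ITGAV and ITGB3, which pair as the vitronectin receptor, were both higher at 1.35 and 1.43.

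Genes of the contractile cytoskeleton and YAP targets had 7 of 39 members higher and none lower, with a median log2 ratio of 0.47. ACTG2, smooth muscle gamma actin, had 5.10 and 94.1 CPM and ANKRD1, a YAP target, 23 and 114 CPM. F3, which encodes tissue factor, had 293 and 1074 CPM. Among keratins and junction genes KRT17, a stress keratin of basal epithelium, had 1.19 CPM untreated and 49.1 with indisulam, and CLDN1, a tight junction protein, 8.92 and 46.0 CPM. KRT81 and KRT86, near-identical hair keratins whose reads may be shared, were higher at 3.07 and 3.35. KRT15 was lower at 10.7 and 4.79 CPM. Of 16 mesenchymal factors SNAI1 and S100A4 were called lower, S100A4 with 396 and 139 CPM, and FOXC2 higher.

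Several growth factor genes were higher. INHBA, which encodes a subunit of activin A, had 0.398 and 13.2 CPM, TGFBR1, the type I TGF-beta receptor, 14.3 and 98.1 CPM, and TGFB2 83.8 and 262 CPM, among 5 of 32 members that were higher and none lower. The IGF binding protein genes IGFBP5 (1.19 and 36.3 CPM), IGFBP7 (67.0 and 312 CPM) and IGFBP3 (7.81 and 27.2 CPM) were higher and IGF2 lower (20.4 and 5.33 CPM). The ratio of IGFBP3 was not seen with palbociclib present, where it had 46.2 and 43.1 CPM. VEGFA, the angiogenic growth factor, had 164 and 646 CPM, a log2 ratio of 1.98 (1.91 to 2.05). The Wnt ligands WNT7B and WNT5A were higher at 2.06 and 1.43, and AXIN2, a feedback target of Wnt signalling, was lower at -1.07.

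Several lipid genes were lower. Of 28 members for fatty acid synthesis, desaturation and lipid droplets 10 were called lower and 1 higher, 24 lay below 0, and the median log2 ratio was -0.49. CIDEC and PLIN4, proteins of the lipid droplet, had 101 and 6.04 CPM and 51.8 and 9.51 CPM. The synthesis genes FASN (982 and 303 CPM), ACACA (215 and 82.2 CPM), ACACB (26.7 and 5.39 CPM) and ACSS2 (137 and 41.9 CPM) were lower, and so was the desaturase SCD (1206 and 557 CPM). DGAT2, which completes triglyceride synthesis, was the member that was higher, at 4.54 and 11.4 CPM. In the palbociclib library FASN and SCD were already at 285 and 227 CPM, and in the pair with palbociclib their log2 ratios were -0.62 and -0.38. Of 30 cholesterol genes 3 were called lower and none higher, 23 lay below 0, and SREBF1, the regulator of lipid synthesis, had 432 and 203 CPM. SQLE, which catalyses a rate-limiting step of cholesterol synthesis, had a log2 ratio of -0.13.

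Several detoxification genes were lower. Among 27 NRF2 and glutathione members 8 were called lower and 1 higher, with 21 below 0 and a median log2 ratio of -0.42. In the pair with palbociclib the median was -0.27, and 4 of the 8 were called lower there too. HMOX1, heme oxygenase 1, had 251 CPM untreated and 50.8 with indisulam, a log2 ratio of -2.30 (-2.41 to -2.19). It had 90.9 CPM with palbociclib and 56.6 in the combination. ABCC2, an export pump for conjugates, had 320 and 68.8 CPM. AKR1C1 and AKR1C2, near-identical reductases whose reads may be shared, had 170 and 45.9 CPM and 94.4 and 29.9 CPM. ABCC2 was called lower in the pair with palbociclib too, at -1.30, while HMOX1 and AKR1C1 were not called, at -0.68 and -0.95. The defining targets NQO1, GCLM and TXNRD1 were not called, with log2 ratios of -0.31, 0.06 and -0.75, and FTH1 was the member that was higher. In the aldehyde dehydrogenase list 4 of 18 members were lower and 2 higher. ALDH3A1 had 15.1 and 0.539 CPM, while ALDH1A3, a marker enzyme of breast cancer stem-like cells, had 4.94 and 23.9 CPM.

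Most energy metabolism genes had small negative ratios with indisulam alone. Of 70 nuclear genes of oxidative phosphorylation 59 lay below 0, with a median log2 ratio of -0.27, and NDUFS1, of complex I, was the member called, at 139 and 68.9 CPM. The 13 mitochondrial protein genes had a median of -0.18 and 11 lay below 0. Against palbociclib the nuclear genes had a median of -0.04. Glycolysis and hypoxia genes had 3 members higher and 3 lower of 38 (7.89% each), with a median of -0.16 and 14 above 0. In the pair with palbociclib 29 of the 38 lay above 0, the median was 0.25, and 4 were called higher and none lower. CA9 (26 and 1.74 CPM), ALDOC (41.0 and 11.2 CPM) and HK2 (227 and 98.4 CPM) were lower, and VEGFA, ADM and PFKFB4 higher. Of these genes only PFKFB4 was called in the pair with palbociclib, also higher.

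Amino acid response genes, which the transcription factor ATF4 controls, differed in direction between the pairs. Of 26 members 5 were called lower and 3 higher with indisulam alone, with a median log2 ratio of -0.23, but none lower and 12 higher in the pair with palbociclib, with a median of 0.76. ASNS, asparagine synthetase, had 140 CPM untreated, 58.7 with indisulam, 21.9 with palbociclib and 54.6 in the combination. PSAT1, of serine synthesis, had 106, 39.5, 20.4 and 77.0 CPM in the same order. For both genes the untreated library was the highest and the palbociclib library the lowest. STC2 (92.0 and 404 CPM), GDF15 (8.04 and 38.0 CPM) and SLC3A2 (121 and 252 CPM) were higher in both pairs, and ATF4 itself had -0.05. The ASNS promoter (chr7:97872409-97872508, - strand, RefSeq, GRCh38.p14) is shown for its match, in capitals, to the amino acid response motif (TGATGNAAN), 68 bases before the start, which 1.72% of all promoters searched held.
ASNS: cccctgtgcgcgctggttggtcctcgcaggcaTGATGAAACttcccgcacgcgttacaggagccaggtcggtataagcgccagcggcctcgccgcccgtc

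Calls differed between the stress and death lists. None of 23 unfolded protein response members and none of 20 aminoacyl-tRNA synthetases was called in the indisulam pair, and HSPH1 was the single heat shock gene called, at 1.09. Among 31 p53 targets 5 were higher (16.1%) and 4 lower (12.9%), beside 5.50% and 4.83% of all members, with a median log2 ratio of 0.05. PMAIP1, which encodes the pro-apoptotic protein NOXA, had 12.3 and 41.3 CPM, a log2 ratio of 1.75, and was the member called of the 15 in the BCL2 family. BCL2L1, which encodes BCL-xL, had 211 and 343 CPM, and MCL1 648 and 445 CPM, log2 ratios of 0.70 and -0.54. GPNMB, a glycoprotein of lysosomes, had 3.11 CPM untreated, 30.9 with indisulam, 69.1 with palbociclib and 103 in the combination. Of 46 lysosome and autophagy members, CTSH was called higher as well and GAA lower, at 1.31 and -1.02.

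The medium holds hydrocortisone, a glucocorticoid, and some targets of its receptor were lower. TSC22D3, which encodes GILZ, had 1618 CPM untreated and 386 with indisulam, a log2 ratio of -2.07 (-2.11 to -2.03), and FKBP5, which modulates the receptor, 1186 and 426 CPM. TFCP2L1 was lower as well, making 3 of 12 members lower and none higher. PER1, ZBTB16 and KLF9, other targets, had log2 ratios of 0.06, 0.05 and 0.30, and NR3C1, the receptor gene, 0.34, so the list had no common direction. In the palbociclib library TSC22D3 was at 334 CPM and in the combination at 116 CPM. Complement and coagulation genes were split with 7 of 20 members higher and 3 lower, and a median log2 ratio of 0.10. In the pair with palbociclib the median was -0.65, with 4 members called higher and 6 lower. Of the 7 members higher with indisulam alone, 3 were called higher there too. C3, the central complement component, had 301 CPM untreated and 883 with indisulam, but 1433 with palbociclib and 780 in the combination. CLU, an inhibitor of complement, had 234 and 58.0 CPM.

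The senescence lists used by the study gave unlike pictures. They are published signatures that the study picked and applied to these cells, so their direction is not taken as independent evidence. Of 17 members of the Hernandez SASP list 11 were called higher and none lower, with a median log2 ratio of 2.04, and 10 of the 11 were higher in the pair with palbociclib. Of 29 members of the Purcell list 14 were higher and 1 lower, with a median of 0.99. The median of the SASP list was 1.03 at a limit of 20 CPM and 1.22 with no filter. The Casella, Fridman and Hernandez lists had medians of 0.10, 0.10 and 0.08, with 4 of 31, 10 of 60 and 1 of 29 members higher. The lists share genes, and IL1A and IL1B stood in both lists with high medians. ICAM1 and PLAUR lay just under the limit at 0.99 and 0.95. The other members of the SASP list that were not called were IGFBP6 (59.2 and 32.3 CPM), AXL (422 and 308 CPM), IGFBP4 and TIMP2, with log2 ratios of -0.87, -0.46, 0.10 and 0.32.

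**Figure D3:**
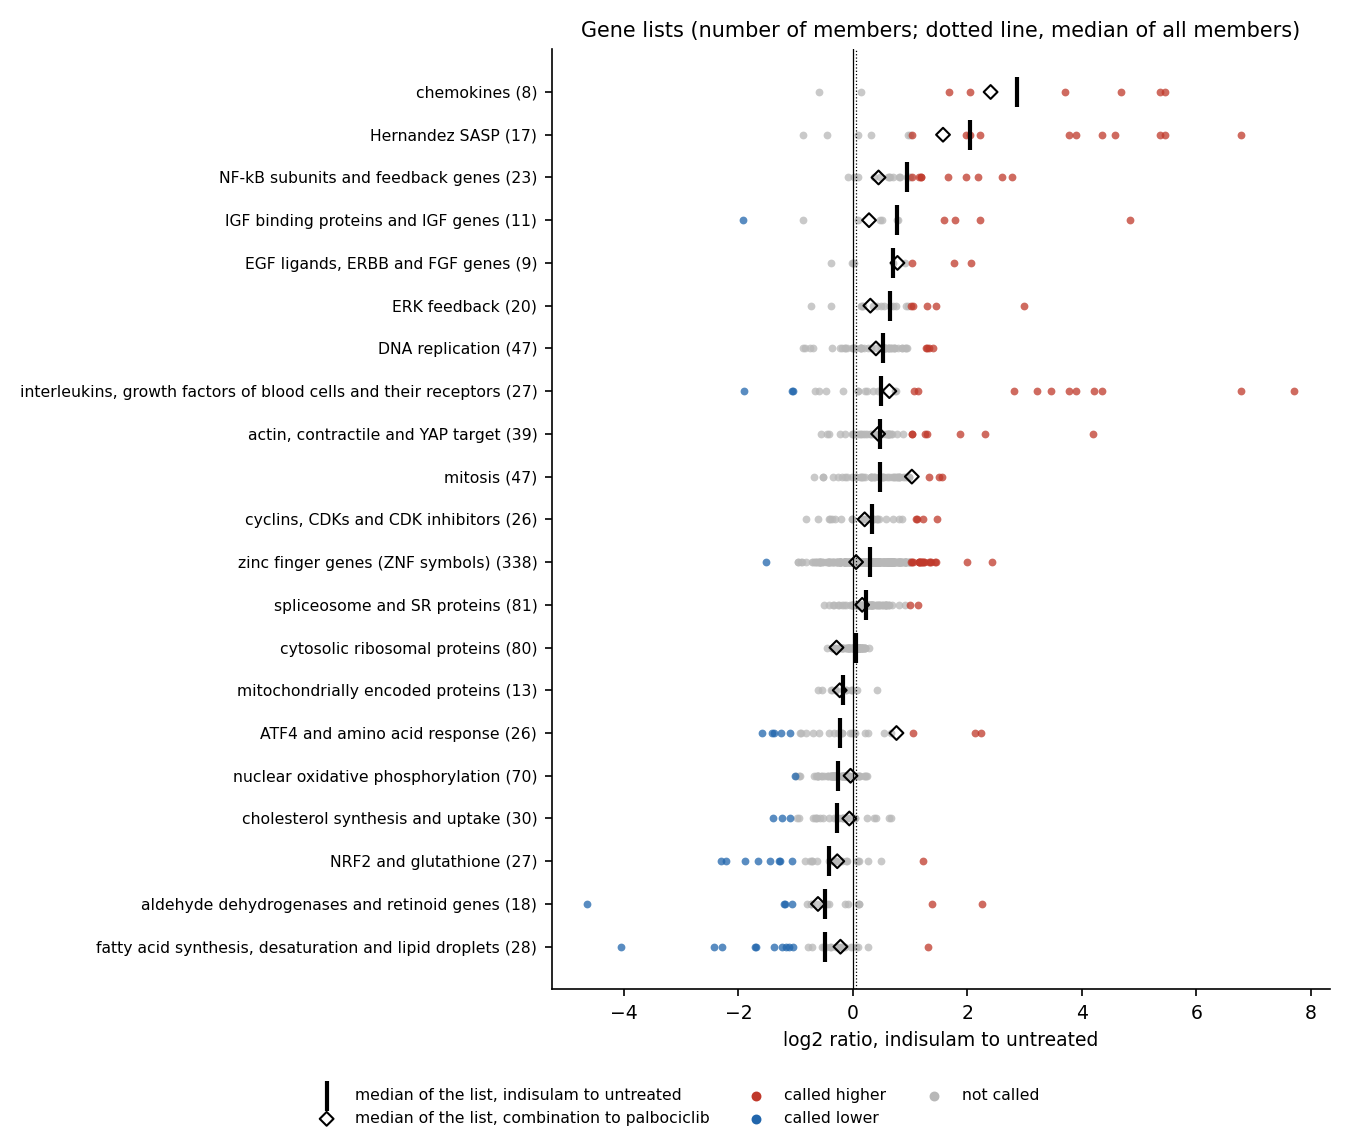
Log2 ratio of indisulam to untreated (x axis) for the members of 21 gene lists, 1 point per member, red and blue where called higher and lower. The black bar is the median of each list and the open diamond its median in the pair with palbociclib, from 2.87 for the chemokines to -0.49 for the fatty acid list, beside 0.06 over all members (dotted line).

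The remaining lists differed in their calls, to be read beside 5.50% higher and 4.83% lower over all members. None of 36 proteasome members was called, with a median log2 ratio of 0.14. Of 15 clock genes 4 were higher (26.7%) and 1 lower (6.67%), with the repressor gene BHLHE41 at 1.71 and DBP, an output gene of the clock, at -1.13. In the 35 nuclear pore and import members NUP210, a membrane protein of the pore, had 63.6 CPM untreated and 11.8 with indisulam, and NUP58 was higher at 1.11. HMGB3, a chromatin protein, had 108 and 280 CPM and was the member called of 19 lamin, HMG and chromatin genes. MT1X was lower among 3 metallothioneins, at 17.8 and 7.36 CPM.

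Large gene families were read without regard to function. Zinc finger genes leaned upward, with 255 of 338 members above 0, a median log2 ratio of 0.30, and 1 called lower (0.296%, beside 4.83% of all members). The share called higher, 19 genes or 5.62%, was close to the 5.50% of all members. ZNF320 had 1.91 and 10.6 CPM. With palbociclib present the median of the family was 0.05, and many of its genes are close copies that may share reads. Solute carriers had 8 members higher and 10 lower of 181, among them SLC7A2, a transporter of arginine, with 56.2 and 363 CPM. Of 326 long noncoding RNAs 30 were higher and 30 lower, 9.20% each, with LINC02957 (1.12 and 37.0 CPM) and LINC02056 (4.06 and 31.4 CPM) among those higher. Lower was FER1L4, a pseudogene transcript, with 18.1 and 1.68 CPM. Their median expression was 10.1 CPM beside 39.2 CPM in protein-coding genes, and calls were more frequent at low expression.

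Most members called with indisulam alone kept the direction of their ratio with palbociclib present. Of the 621 members called higher, 344 (55.4%) were called higher in the pair with palbociclib and 600 (96.6%) had a positive log2 ratio there. Of the 545 called lower, 303 (55.6%) were called lower and 509 (93.4%) were negative. Of the 10127 members not called, 3.72% were called higher there and 3.17% lower, and how many kept their sign was not counted. Over the genes called higher the median log2 ratio was 1.34 without and 1.06 with palbociclib, and over those called lower -1.34 and -1.09. In 13 members the calls were opposite. CP, ceruloplasmin, had 3.82 CPM untreated and 18.6 with indisulam, but 51.8 with palbociclib and 15.9 in the combination. PAPLN, papilin, followed the same order, with 12.4, 27.7, 75.9 and 21.2 CPM. In the opposite sense stood 10 genes, KRT15, PSAT1, ASNS, CHAC1 and TSPAN13 among them, and in each the palbociclib library lay below the untreated one. In KRT15 and TSPAN13 the combination was the highest library and indisulam the lowest.

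**Figure D4:**
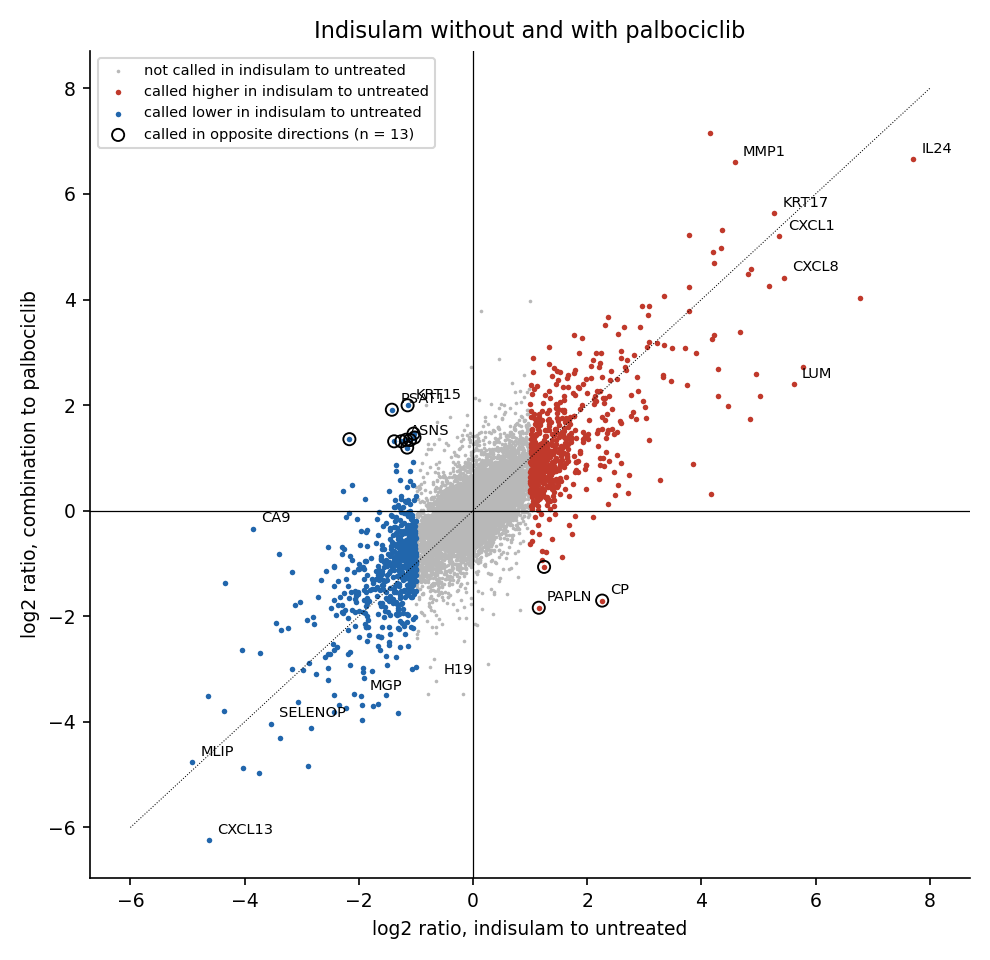
Log2 ratio of the combination to palbociclib (y axis) against that of indisulam to untreated (x axis), 1 point per member, coloured by the call in the indisulam pair; the dotted line is equality. The 13 circled members were called in opposite directions, CP and PAPLN below and KRT15, PSAT1 and ASNS above 0 on the y axis.

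Promoter motifs were counted over the 9090 members with a promoter in the RefSeq table, from 250 bases before to 50 bases after the start and on both strands. AP-1 matches (TGANTCA) stood in 8.41% of promoters of genes called higher, 5.52% of those called lower and 4.39% of all. In the 239 genes higher in both pairs the share was 12.1%. Kappa-B matches (GGNNTTTCC) stood in 9.29%, 5.04% and 6.74%, and in 5 of the 6 chemokine members with a promoter. The kappa-B share was 9.62% in genes higher in both pairs and 7.56% in those lower in both. Both motifs together were found in 0.352% of all promoters and in CXCL8 and CXCL11. E2F matches (TTTNNCGC) stood in 20 of 40 DNA replication promoters and in 11% of all. By call, they stood in 12.2% of promoters of genes higher and 7.43% of those lower. The amino acid response motif stood in 2.88% of promoters of genes called higher, 3.36% of those called lower and 1.72% of all. Shares of the other motifs searched are not reported here. The promoter of IL24 held no AP-1 or kappa-B match in this window. A match is a run of letters and not a measured binding site.

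Gene structure went with the ratio to a small degree. Over 10769 protein-coding members the median log2 ratio went from 0.21 in the lowest quintile by transcript GC content to -0.07 in the highest, and the share called lower went from 2.09% to 7.52%. In the pair with palbociclib the medians went from 0.25 to -0.21. By number of exons the medians lay between 0.04 and 0.11. Genes with 1 exon, which need no splicing, were called lower in 1.16% (2 of 173) and higher in 6.94%. They include the 13 mitochondrial protein genes, of which none was called. At 2 to 4, 5 to 9, 10 to 19 and 20 or more exons the shares lower were 4.46%, 4.51%, 5.01% and 4.97%. Of genes with 20 or more exons 5.25% were called higher. The role of GC content in the results above was not tested, and the gene lists were not matched for it.

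Chromosomes 17 and 13 stood apart from the rest. On chromosome 17, 81 of 691 members (11.7%) were called lower and 25 (3.62%) higher, the median log2 ratio was -0.22, and 30.1% of the members lay above 0. On chromosome 13, 23 of 198 members (11.6%) were called higher and 6 lower, the median was 0.34, and 74.2% lay above 0. The other nuclear chromosomes had medians between -0.14 and 0.18, between 3.07% and 5.59% of members lower and between 3.67% and 7.92% higher. In the pair with palbociclib, chromosome 17 had a median of -0.12 and chromosome 13 of 0.30.

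The shift ran along both chromosomes. Of 9 windows of 10 Mb with at least 20 members on chromosome 17, 8 had a median below 0, and the first 10 Mb had the lowest of 219 windows in the genome, -0.38 over 118 members with 20 lower and 1 higher. All 4 such windows on chromosome 13 lay above 0. Within each quintile by GC content chromosome 17 lay below the other chromosomes, by medians of -0.15 to -0.34, and chromosome 13 above them, by 0.13 or more. Genes named above are among them: SERPINF1, ALDH3A1, AOC3, ITGB4, FASN and SREBF1 are on chromosome 17, and POSTN, COL4A1 and COL4A2 on chromosome 13. LCP1, an actin-bundling protein, had 236 and 665 CPM and IRS2, an insulin receptor substrate, 20.1 and 60.4 CPM, both on chromosome 13. STAC2, an adaptor of calcium channels on chromosome 17, had 639 and 139 CPM, and ACADVL, of fatty acid oxidation, 228 and 63.2 CPM. KRT17 and CCL5, also on chromosome 17, were higher. Without both chromosomes 573 of 10404 members were called higher and 458 lower. DNA copy number of the cultures was not part of the data, and its part in these shifts was not tested.

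**Figure D5:**
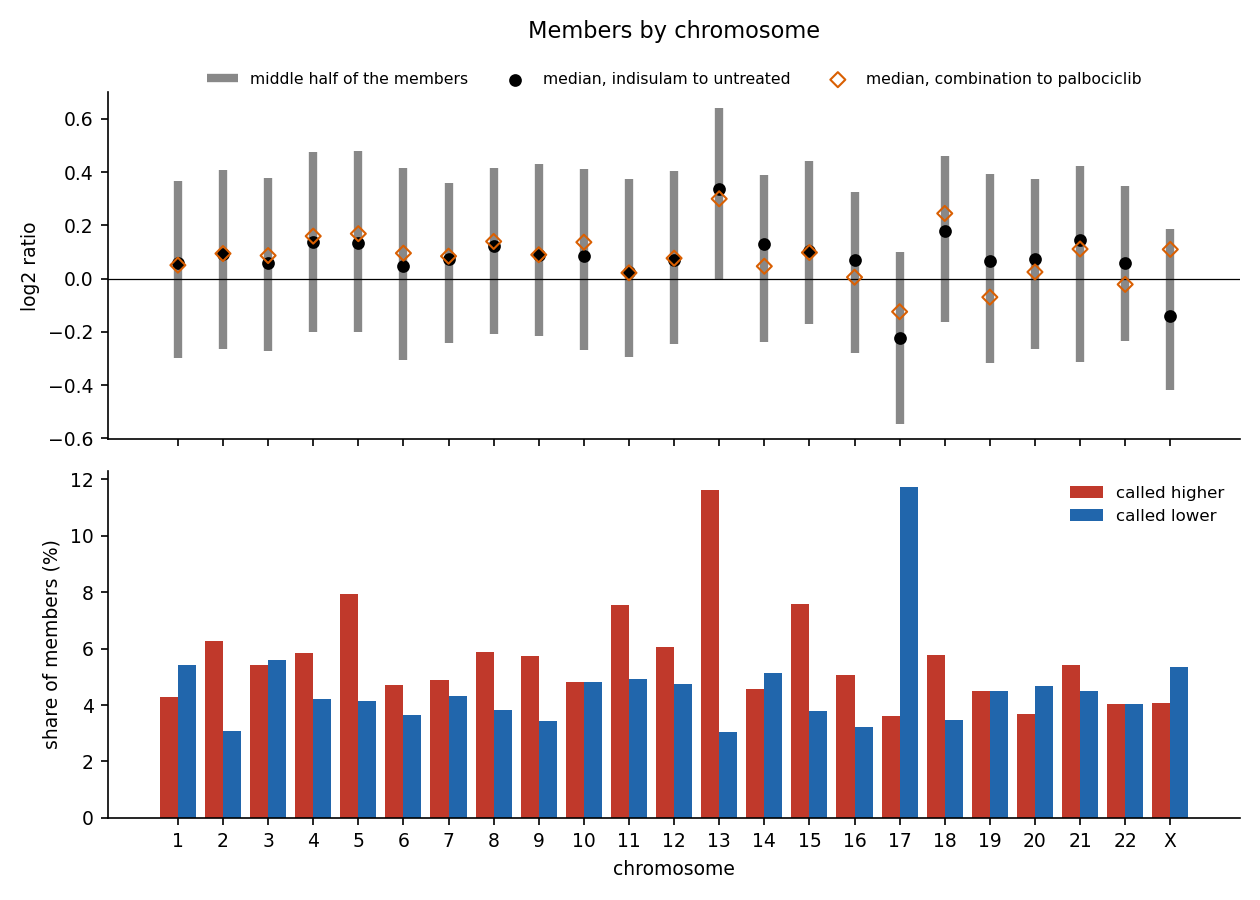
Top, median log2 ratio of indisulam to untreated (black points) with the middle 50% of members (grey bars) and the median in the pair with palbociclib (open diamonds), for each chromosome. Bottom, percent of members called higher (red) and lower (blue); chromosome 17 reaches 11.7% lower and chromosome 13 reaches 11.6% higher.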

How the data were processed

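RNA of SUM159 cells was sequenced from 1 library per condition, and groups were taken from the sample labels. The authors deposited 1 table of raw read counts per gene for each library; the submitters' processing notes name TopHat2 2.1, HTSeq and GRCh38. The annotation release and the strand setting of the counting were not given in the sources used here. Rows that name no gene held 9.70% of the tallied reads in the untreated and 9.78% in the indisulam library and were left out of the totals. CPM values, ratios and exact (Clopper-Pearson) counting intervals were computed in Python 3.11.15 with pandas 2.3.3 and scipy 1.17.1, and normalization factors with edgeR 4.0.16 in R 4.3.3. At this depth 3 reads equal 0.239 CPM untreated and 0.180 CPM with indisulam. With 1 library per group no test was run; the steps were tested on simulated data. Alternatives in scaling, pseudocount, expression limit and fold limit are given in the closing section. Promoters and annotation came from RefSeq tables and a GRCh38 annotation, which covered 11237 members.

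The members and the gene lists were chosen with earlier results of these data known. Genes were named by rule: the 15 called higher and the 15 called lower with intervals farthest from 0, the 6 with the largest gain and loss of CPM, up to 4 called members of each list per direction, genes with 3 or fewer reads in 1 library and high in the other, noncoding genes called, and the drug target, cyclin, CDK and BCL2 family lists. Other genes named, such as uncalled list members and genes on chromosomes 13 and 17, were chosen after their values were seen. Values of some genes that the rule names are not reported here.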

Additional observations from a re-analysis of the deposited data

Results flagged for a closer look

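In 13 members the indisulam pair and the pair with palbociclib were called in opposite directions, and the difference between the pairs was not tested, since each has 1 library a side. Of the genes named by rule, PSAT1 had log2 ratios of -1.42 and 1.91, CHAC1 of -1.38 and 1.31, ASNS of -1.26 and 1.31, TSPAN13 of -1.15 and 1.20, and KRT15 of -1.15 and 2.00, the first value being indisulam alone. Reads outside any annotated gene, which no comparison used, made up 0.694% of the tallied reads in the indisulam library and 0.615% in the untreated library, beside 0.663% with palbociclib and 0.671% in the combination.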

How the results depend on the processing

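The counts called depended on the limits set. Of genes called higher there were 1131 at a limit of 1 CPM, 311 at 20 CPM, 1600 with no filter, 1715 at 1.5-fold and 202 at 3-fold, beside 621. Of genes called lower there were 982, 273, 1283, 1455 and 179 in the same order, beside 545. Other scalings gave between 543 and 600 higher and between 568 and 632 lower, and pseudocounts of 0.5 and 5 gave 627 and 596 higher. The luminal marker median turned from 0.31 to -0.20 with no filter, and the cause was not tested. The chemokine median went from 2.87 to 1.5 with no filter and to 4.11 at 1 CPM. The interleukin median went from 0.48 to 0.087 and the Hernandez SASP median from 2.04 to 1.03 at 20 CPM. Calls of SPRY4, FGF2, APCDD1, SLC3A2, GADD45A, PRPF3, SNHG1, NPAS2 and TAF13, all close to 2-fold, were lost with upper-quartile scaling. Chosen after seeing the data, TMM scaling in both pairs gave 294 genes higher and 351 lower in both, beside 344 and 303. Over 10 alternatives the median of chromosome 17 lay between -0.28 and -0.20 and that of chromosome 13 between 0.28 and 0.38. No analysis paired by replicate was possible because each condition has 1 library, and for the same reason no replicate could be left out. The 4 libraries form a pair without and a pair with palbociclib, and an additive fit of both drugs over them was not run. Depth limits genes of 5 to 20 CPM most, where the counting interval reached a median of 0.33 to either side on the log2 scale.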
